A study of Mus musculus with 3 samples.

Results

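The gene set holds 31 named genes of sterol synthesis, its control by sterols, sterol transport and cholesterol efflux, out of 32285 genes in the count matrices. The genes were taken by name, with no threshold on a measured value. By role it holds 17 enzymes of the synthesis pathway, 5 regulators of the SREBP (sterol regulatory element-binding protein) system, 3 genes of sterol transport and acetyl-CoA condensation, and 6 genes of the LXR (liver X receptor) and efflux arm. All 31 were found in the matrices, on 17 chromosomes of GRCm38.

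The study profiled single cells of MCA205 LA OVA tumours, a mouse fibrosarcoma line carrying an ovalbumin fusion, in 3 genotypes. The groups were WT mice, sGSN-/- mice, which lack secreted gelsolin, and sGSN-/-Clec9a-/- mice, which also lack the dead-cell receptor DNGR-1 encoded by *Clec9a*. All mice were on the C57BL/6J background and all tumours were taken on day 5, with age given only as a range for the study as a whole. Tumours of 25 male and 12 female WT mice, 15 male and 16 female sGSN-/- mice, and 10 male and 17 female sGSN-/-Clec9a-/- mice were pooled by genotype before sorting, so the mix of sexes differs between the genotypes. The sorted type 1 and type 2 conventional dendritic cells (cDC1s and cDC2s) and their precursors were mixed into 1 library for each genotype.

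Animal cells build cholesterol from acetyl-CoA through mevalonate, farnesyl diphosphate, squalene and lanosterol. When the endoplasmic reticulum holds little sterol, the escort protein SCAP carries the membrane-bound SREBP factors to the Golgi, where they are cleaved and released to switch on the genes of the pathway, and when sterol is plentiful the INSIG proteins hold SCAP back. Oxysterols and late intermediates of the pathway bind LXR, which raises the exporters ABCA1 and ABCG1 and the ligase MYLIP (IDOL), and *Ch25h* encodes an enzyme that makes an oxysterol in immune cells.

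The WT, sGSN-/- and sGSN-/-Clec9a-/- libraries held 12763, 8173 and 9273 cell barcodes with 176578136, 109270958 and 113411930 UMIs (unique molecular identifiers, counts of captured RNA molecules). The deposited table names 5806 of these barcodes as cDC1s, and 5746 of them in clusters 0 to 10 were used: 2297, 1683 and 1766 in the order of the libraries above, with 32632707, 23484763 and 21444320 UMIs. Their median depth was 14129, 14246 and 12263 UMIs a cell and their median mitochondrial share 1.56, 1.64 and 1.94%. Pairs of libraries shared 2, 2 and 3 cDC1 barcodes. All levels below are CPM, a gene's UMIs over the UMIs of the same cells, times 1e6, and a series of 3 values is always in the order WT, sGSN-/-, sGSN-/-Clec9a-/-.

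The cDC1 label was checked against 9 marker genes. Each of the 9 was at 10 CPM or more, *Naaa* was the most abundant, and their summed level was 4017, 3902 and 4014 CPM. In cluster 8 the sum was 1655, 1580 and 1846 CPM and in cluster 10 it was 3412, 3464 and 3270 CPM, again with 9 of 9 markers at 10 CPM or more. In cluster 4 it was 2201, 2403 and 2307 CPM with 9 of 9, below the resting clusters, whose libraries ran from 3368 to 6199 CPM. The clusters fall into early (4 and 1), resting (5, 2, 3, 6 and 0) and activated (7, 9, 8 and 10) states. Cluster 8 holds 84, 114 and 57 cells and is marked by *Ccr7*, *Il12b* and *Fscn1*, summing to 5924, 5384 and 2684 CPM there. Cluster 10 holds 21, 27 and 28 cells and is marked by *Serpina3g*, *Cxcl9* and *Cxcl10*, summing to 6527, 7198 and 7615 CPM.

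Clusters were compared over the 3 libraries with edgeR's quasi-likelihood test on summed UMI counts, and a gene was called at a Benjamini-Hochberg adjusted p under 0.05 over the 9606 genes tested. Since the clusters were drawn by the authors from these very counts, an adjusted p here is no evidence that a cluster is real. It weighs a difference against the gene's spread between libraries, and the fit shares that spread over all clusters. A call thus does not by itself show that the 3 libraries of the cluster named agree. The spread between libraries also contains any difference between genotypes. Of the 31 members, 28 passed the filter on low counts, and *Abca1*, *Nr1h3* and *Ch25h* did not. With these settings, counts of members below are over those 28 and stand beside the share of all genes tested that was called in the same direction. Under the alternatives 25 members were tested with thinned cells, 31 with no filter, and 27 without doublets or without barcodes carrying other markers. Counts under an alternative carry no share unless all genes called are printed with them.

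Most enzymes had their highest level in an early cluster. Cluster 4 had the highest mean level of the 11 clusters for 13 of 17 enzymes, and cluster 9 had the lowest for 9. These counts have no share of all genes beside them, so nothing about the enzymes against other genes is drawn from them. Cluster 9 holds 162 cells, and its sums are small. In the early clusters against the resting ones, 19 members were higher and 3 lower, beside 24.1% and 22.8% of all genes tested. The median log2 fold change was 1.31 over the members and −0.00 over all genes. Among the higher members were 16 of 17 enzymes, with log2 fold changes from 0.46 for *Pmvk* to 2.82 for *Idi1*, each higher in 3 of 3 libraries. *Tm7sf2*, a sterol reductase, was the enzyme not called.

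*Fdps*, which makes farnesyl diphosphate and whose exons overlap *Gm43738* on the same strand, was at 53.7, 76.3 and 38.0 CPM in resting cells and at 330.1, 357 and 236 CPM in early cells. *Idi1*, which isomerises isopentenyl diphosphate, was at 17.9, 20.1 and 9.42 CPM in resting and 124, 119.8 and 66.4 CPM in early cells. *Hmgcs1*, which makes HMG-CoA at the entry of the pathway, was at 20.5, 22.4 and 15.3 CPM in resting and 93.8, 94.0 and 59.4 CPM in early cells. For each of these 3 genes the lowest early library lay above the highest resting library. The test gave log2 fold change 2.74, SE 0.133, adjusted p 1.24e-19 for *Fdps*, log2 fold change 2.82, SE 0.165, adjusted p 3.02e-17 for *Idi1* and log2 fold change 2.06, SE 0.139, adjusted p 2.31e-15 for *Hmgcs1*, each in 3 of 3 libraries. The 16 enzymes called in this comparison were called under every alternative that could test them.

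Within the early state, cluster 4 was compared with cluster 1. Of the members, 12 were higher in cluster 4 and 0 lower, beside 7.67% and 5.30% of all genes tested, with a median of 0.43 over the members and 0.02 over all genes. In cluster 1 *Hmgcs1* was at 65.8, 52.3 and 40.9 CPM, beside 141, 172 and 91.2 CPM in cluster 4, and *Msmo1*, a sterol methyl oxidase, at 53.7, 52.3 and 40.0 and 122, 136 and 76.5 CPM. Neither gene's libraries overlapped between the clusters, with log2 fold change 1.3, SE 0.208, adjusted p 2.55e-05 for *Hmgcs1* and log2 fold change 1.11, SE 0.165, adjusted p 3.54e-06 for *Msmo1* in 3 of 3 libraries. The other enzymes called were *Mvd*, *Idi1*, *Fdft1*, *Sqle*, *Lss*, *Cyp51*, *Hsd17b7* and *Sc5d*, at log2 fold changes from 0.66 to 1.13. Only 6 members were called without the WT library, 4 without the sGSN-/- library and 10 without the sGSN-/-Clec9a-/- library, and *Hmgcs1*, *Mvd*, *Msmo1* and *Insig1* were called under all 10 alternatives. With DESeq2 and with thinned cells 9 members were called each, and *Acat2* was called under 5 of the 9 alternatives that could test it, the library block among them. All genes called, 1246 with the settings used throughout, fell to 674, 672 and 982 with these libraries left out in turn. They numbered 1285 with DESeq2 and 589 of 7444 tested with thinned cells. Without TMM scaling factors the median of all genes moved to 0.10 and the calls over all genes went from 737 higher and 509 lower to 960 and 325.

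In cluster 5, against the mean of the other resting clusters, 8 members were higher and 2 lower, beside 19.6% and 18.1% of all genes tested, and the medians were 0.35 and −0.02. *Mvd*, which decarboxylates mevalonate diphosphate, was at 20.9, 25.9 and 17.7 CPM in cluster 5 and at 6.72, 9.14 and 7.17 CPM in all resting cells including cluster 5. *Fdps* was at 127, 159 and 82.7 CPM in cluster 5, and *Ebp*, a sterol isomerase, at 89.5, 92.3 and 92.1 CPM. All 3 genes were higher in 3 of 3 libraries, at log2 fold changes of 2.06 (SE 0.180, adjusted p 4.90e-12), 1.69 (SE 0.197, adjusted p 5.77e-09) and 0.95 (SE 0.0872, adjusted p 1.89e-11). The other enzymes called were *Idi1*, *Sqle*, *Cyp51* and *Msmo1*. Without the WT library 5 members were called, without the sGSN-/- library 6 and without the sGSN-/-Clec9a-/- library 11, with DESeq2 8 and with thinned cells 5, and *Mvd*, *Fdps* and *Ebp* were called under all 10 alternatives. All genes called in these fits numbered 2549, 2600, 3119, 3492 and 2135 in the same order, beside 3625 with the settings used throughout.

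Of the activated clusters, cluster 7 had 13 members higher and 0 lower, beside 16% and 8.47% of all genes tested, with medians of 0.59 and −0.01. Of the 13, 12 were enzymes, each higher in 3 of 3 libraries. *Fdps* was at 146, 198 and 152 CPM, *Idi1* at 52.2, 53.5 and 42.7 CPM and *Hmgcs1* at 48.7, 60.6 and 35.3 CPM in cluster 7, each library above every pooled resting library of its gene. Resting cluster 5 alone overlapped with cluster 7, its sGSN-/- library being at 159 CPM for *Fdps* and 37.9 CPM for *Hmgcs1*. The log2 fold changes were 1.90, 1.80 and 1.36, with adjusted p of 4.55e-11, 6.02e-07 and 3.48e-06, in 3 of 3 libraries each. The remaining enzymes called were *Mvk*, *Pmvk*, *Fdft1*, *Sqle*, *Cyp51*, *Msmo1*, *Nsdhl*, *Hsd17b7* and *Sc5d*, from 0.42 to 1.35. Without the WT library *Mvk*, *Pmvk*, *Sqle*, *Hsd17b7* and *Sc5d* were not called, without the sGSN-/- library *Pmvk* and *Sc5d* were not, and without the sGSN-/-Clec9a-/- library *Nsdhl* was not. With thinned cells *Fdft1*, *Nsdhl*, *Hsd17b7*, *Sc5d* and *Abcg1* were not called, and with the library as a block *Insig1* and *Stard4* were called as well. The scaling bears on the calls over all genes here: without TMM factors the median of all genes was −0.14 and the calls went from 1534 higher and 814 lower to 1067 and 1628, with 11 members higher, *Pmvk* and *Sc5d* no longer called, and 1, *Srebf2*, lower.

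In cluster 9, 0 members were called in either direction by edgeR, beside 4.83% of all genes tested higher and 1.17% lower. The median was −0.13 over the members and −0.39 over the 17 enzymes. At an unadjusted p under 0.05 there were 5 members, 3 of them enzymes that were lower and 2 of them, *Abcg1* and *Mylip*, higher. That count has no share of all genes at the same threshold beside it, so nothing about the members is drawn from it. DESeq2 called 3 members, a fit with the library as a block 3, and a fit with no filter on low counts 6. Over all genes these fits called 653, 669 and, of 18137 tested, 634, beside 576 with the settings used throughout. Without the WT library 1 member was called, without the sGSN-/- library 0 and without the sGSN-/-Clec9a-/- library 2, beside 325, 358 and 454 of all genes. *Sqle*, the squalene epoxidase, had 1, 0 and 0 UMIs in cluster 9, where a count of 0 allows up to 5.41 CPM in the sGSN-/- library and 4.44 CPM in the sGSN-/-Clec9a-/- library. *Cyp51*, the lanosterol demethylase, was at 23.0, 5.41 and 19.2 CPM and *Fdps* at 31.7, 32.4 and 14.8 CPM in that cluster, each below its resting level in 3 of 3 libraries. The 5 cycling genes summed to 64.3, 59.5 and 53.3 CPM in cluster 9, with *Mki67* the most abundant, 1 of 5 at 10 CPM or more and none at 0, beside means of 11.1 to 34.1 CPM in the resting clusters, and their part in these levels was not tested.

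Clusters 8 and 10 were each compared with resting cells and then with each other. In cluster 8, 14 members were higher and 4 lower than in resting cells, beside 27.0% and 21.2% of all genes tested, with medians of 0.72 and −0.01. Of the 17 enzymes 11 were higher and 1 lower. In cluster 10, 14 members were higher and 1 lower, beside 10.6% and 7.08% of all genes tested, with medians of 1.24 and −0.04, and 12 enzymes were among the higher ones. Tested directly, 4 members were higher in cluster 8 than in cluster 10 and 5 lower, beside 16% and 11.2% of all genes tested, with medians of −0.84 and 0.08. The 3 comparisons share clusters, so their calls are not independent of each other.

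At the entry of the pathway, *Hmgcs1* was at 20.5, 22.4 and 15.3 CPM in resting cells, in cluster 8 at 56.2, 64.5 and 21.3 CPM and in cluster 10 at 184, 35.4 and 87.0 CPM. For *Mvk*, the mevalonate kinase, the values were 7.05, 7.95 and 7.32 CPM in resting cells, 8.72, 13.4 and 3.88 CPM in cluster 8 cells and 17.7, 12.9 and 16.7 CPM in cluster 10. *Hmgcs1* was above its resting level in every library of both clusters, whereas *Mvk* in cluster 8 was below it in the sGSN-/-Clec9a-/- library. The log2 fold change of *Hmgcs1* against resting cells was 1.59 in cluster 8 (adjusted p 5.73e-06, 3 of 3 libraries) and 2.28 in cluster 10 (adjusted p 5.02e-06, 3 of 3 libraries), and the difference between the clusters was called, as lower in cluster 8, only without the sGSN-/- library and with no filter on low counts. *Mvk* was called in cluster 8 at 0.70 in 2 of 3 libraries, and this call was lost under 7 of 10 alternatives: without TMM factors, with no filter, with thinned cells, without doublets, without barcodes carrying other markers, and without the WT or the sGSN-/- library.

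*Pmvk* encodes the next kinase, of phosphomevalonate: it was at 71.6, 70.9 and 73.0 CPM in resting cells, in cluster 8 at 246, 221 and 95.1 CPM and in cluster 10 at 152, 77.3 and 147 CPM. Cluster 8 was above cluster 10 in the WT and sGSN-/- libraries and below it in the sGSN-/-Clec9a-/- library. The log2 fold change was 1.79 in cluster 8 (SE 0.119, adjusted p 2.26e-16, 3 of 3 libraries), 0.88 in cluster 10 and 0.91 between them (adjusted p 5.92e-04, 2 of 3 libraries), and the last was not called without the sGSN-/- library. *Mvd* was at 6.72, 9.14 and 7.17 CPM in resting cells, in cluster 8 at 11.6, 14.96 and 5.82 CPM and in cluster 10 at 39.0, 16.1 and 16.7 CPM. In cluster 8 its sGSN-/-Clec9a-/- library lay under the resting value and the other 2 lay above it, while in cluster 10 all 3 lay above, and it was called at 1.05 and 1.78. Without the sGSN-/- library *Mvd* was not called in cluster 8, without the WT library *Mvd* and *Pmvk* were not called in cluster 10, and with thinned cells *Mvd* was called in neither.

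The isoprenoid steps came next. *Idi1* was at 17.9, 20.1 and 9.42 CPM in resting cells, in cluster 8 at 123, 110.2 and 29.1 CPM and in cluster 10 at 195, 51.6 and 83.7 CPM. *Fdps* was at 53.7, 76.3 and 38.0 CPM in resting cells, in cluster 8 at 102, 121 and 25.2 CPM and in cluster 10 at 358, 245 and 358 CPM. *Idi1* lay above its resting level in all 3 libraries of both clusters, whereas *Fdps* did so in cluster 10 and in 2 of 3 libraries of cluster 8, its sGSN-/-Clec9a-/- library being lower there. *Idi1* was called at 2.89 in cluster 8 (SE 0.278, adjusted p 1.22e-11) and 2.80 in cluster 10 (SE 0.422, adjusted p 2.62e-06), with 0.09 between them, not called. *Fdps* was called at 1.19 and 2.73 (adjusted p 1.28e-04 and 7.63e-11), and it was lower in cluster 8 than in cluster 10 (log2 fold change −1.54, SE 0.315, adjusted p 1.88e-04) in 3 of 3 libraries. Each of these calls of *Idi1* and *Fdps* was made under all 10 alternatives.

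The squalene steps were called higher in both clusters. The squalene synthase gene *Fdft1* was at 5.49, 5.72 and 4.33 CPM in resting cells, in cluster 8 at 16.47, 17.3 and 11.6 CPM and in cluster 10 at 28.3, 9.67 and 6.69 CPM. *Sqle* was at 5.59, 6.91 and 2.47 CPM in resting cells, in cluster 8 at 13.6, 13.4 and 3.88 CPM and in cluster 10 at 67.3, 16.1 and 20.1 CPM. Every library of both clusters lay above the resting level of its gene, and the WT library of cluster 10 was the highest for both. *Fdft1* had 8, 3 and 2 UMIs in cluster 10, and *Sqle* had 14, 17 and 2 in cluster 8. A count of 0 allows up to 9.67 and 10.04 CPM in the sGSN-/- and sGSN-/-Clec9a-/- libraries of cluster 10, and *Fdft1* was no higher there. In the sGSN-/-Clec9a-/- library of cluster 8 it allows up to 5.82 CPM, above the level of *Sqle*. *Fdft1* was called at 1.84 in cluster 8 and 1.47 in cluster 10, and *Sqle* at 1.42 and 2.71, in 3 of 3 libraries each. In cluster 8 *Sqle* was not called without the sGSN-/- library or with thinned cells. In cluster 10 *Fdft1* was not called without the WT or the sGSN-/- library or with thinned cells, nor *Sqle* without the WT library. *Sqle* was called lower in cluster 8 than in cluster 10 under 5 of 10 alternatives, among them DESeq2, the library block and the fit without the sGSN-/-Clec9a-/- library, though not with the settings used throughout.

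Among the steps after lanosterol, *Cyp51* was at 39.3, 43.8 and 24.2 CPM in resting cells, in cluster 8 at 49.4, 67.7 and 21.3 CPM and in cluster 10 at 206, 58.0 and 131 CPM. *Msmo1* was at 19.6, 19.996 and 14.05 CPM in resting cells, in cluster 8 at 28.1, 22.8 and 7.76 CPM and in cluster 10 at 88.6, 54.8 and 36.8 CPM. *Hsd17b7* was at 4.50, 6.39 and 4.11 CPM in resting cells, in cluster 8 at 10.7, 11.8 and 3.88 CPM and in cluster 10 at 35.4, 9.67 and 23.4 CPM. In cluster 8 the sGSN-/-Clec9a-/- library was the lowest of the 3 for each of these genes and lay below its resting level, and cluster 10 lay above the resting level in all 3 libraries. In cluster 8 *Cyp51* (0.73) and *Hsd17b7* (1.24), which encodes a sterol ketone reductase, were called in 2 of 3 libraries, and *Msmo1* was called only without the sGSN-/-Clec9a-/- library. In cluster 10 the log2 fold changes were 1.81, 1.75 and 2.18, in 3 of 3 libraries. Cluster 8 was lower than cluster 10 for *Cyp51* (−1.08) in 2 of 3 libraries and for *Msmo1* (−1.20) in 3 of 3. In cluster 8 the call of *Cyp51* was lost under 6 of 10 alternatives (without TMM factors, with DESeq2, with thinned cells, without doublets, and without the WT or the sGSN-/- library) and that of *Hsd17b7* under 4 (the last 4 of these). That of *Hsd17b7* in cluster 10 was not made without the WT library, that of *Cyp51* between the clusters not without the WT or the sGSN-/-Clec9a-/- library, and that of *Msmo1* not without the WT or the sGSN-/- library.

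*Ebp* was the 1 enzyme called lower in cluster 8: it was at 54.3, 62.1 and 54.8 CPM in resting cells, in cluster 8 at 22.3, 31.5 and 21.3 CPM and in cluster 10 at 85.0, 80.6 and 90.4 CPM. The 3 groups of libraries did not overlap, with cluster 8 below and cluster 10 above the pooled resting cells. Resting cluster 5 alone was at 89.5, 92.3 and 92.1 CPM, above cluster 10 in each library, and had the highest mean of all clusters. *Ebp* was called lower in cluster 8 (log2 fold change −0.79, SE 0.154, adjusted p 3.56e-05) and higher in cluster 10 (log2 fold change 0.67, SE 0.168, adjusted p 0.00363), each in 3 of 3 libraries. The test between cluster 8 and cluster 10 gave log2 fold change −1.46, SE 0.224, adjusted p 2.07e-06, lower in 3 of 3 libraries. The calls in cluster 8 and between the clusters were made under all 10 alternatives, and that in cluster 10 was not made without the sGSN-/-Clec9a-/- library or with thinned cells.

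The sterol desaturase gene *Sc5d* was at 11.7, 9.66 and 7.62 CPM in resting cells, in cluster 8 at 20.3, 17.3 and 7.76 CPM and in cluster 10 at 42.5, 22.6 and 33.5 CPM. Every library of both clusters lay above the resting value printed here, the sGSN-/-Clec9a-/- library of cluster 8 by less than 1 CPM, and that library lay below the mean of the 5 resting clusters that the test uses. It was called at 0.95 in cluster 8 in 2 of 3 libraries, not without the WT or the sGSN-/- library, without TMM factors or with thinned cells, and at 1.68 in cluster 10 in 3 of 3. The 4 enzymes called in neither cluster were *Lss*, *Tm7sf2*, *Nsdhl* and *Dhcr7*, of which *Tm7sf2* was called higher in cluster 10 by DESeq2 and without the WT library. *Lss*, the lanosterol synthase, was at 1.94, 0.787 and 0 CPM in cluster 8 cells and 17.7, 0 and 3.35 CPM in cluster 10, and *Tm7sf2* at 4.84, 2.36 and 0 and 0, 9.67 and 10.04 CPM. *Nsdhl*, a sterol dehydrogenase, was at 11.6, 7.08 and 3.88 and 21.3, 3.22 and 16.7 CPM, and *Dhcr7*, a late sterol reductase, at 7.75, 4.72 and 1.94 and 17.7, 6.44 and 0 CPM. In these small sums a count of 0 allows up to 10.6, 9.67 and 10.04 CPM in cluster 10 and up to 5.82 CPM in the sGSN-/-Clec9a-/- library of cluster 8.

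Counts of members in these clusters depended on the library set. In cluster 8, 13 members were called without the WT library, 10 without the sGSN-/- library and 18 without the sGSN-/-Clec9a-/- library, and *Hmgcs1*, *Pmvk*, *Idi1*, *Fdps*, *Fdft1*, *Ebp*, *Scap*, *Abcg1* and *Nr1h2* were called under all 10 alternatives. All genes called there numbered 3655, 3422 and 4559 in the same order, beside 4637 with all libraries. In cluster 10 the counts of members were 10, 13 and 13, and 7 members were called under all alternatives. All genes called in cluster 10 numbered 1109, 1119 and 1182, beside 1696 with all libraries. The scaling also moves cluster 8: without TMM factors the median of all genes was −0.27 against resting cells, and calls over all genes went from 2598 higher and 2039 lower to 1894 and 3280. For cluster 8 against cluster 10 that median was −0.16 and the calls went from 1536 higher and 1074 lower to 1057 and 1702. No called member changed direction without TMM factors. With them, the enzymes higher in cluster 8 numbered 11, and without them 8.

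Levels of other cell types' markers differed between libraries in cluster 8. The macrophage list of 10 markers summed to 621, 61.4 and 77.6 CPM there, with *Apoe* the most abundant, and the NK cell list of 7 markers to 22.3, 205 and 42.7 CPM, with *Gzma* the most abundant. The 5 cycling genes summed to 74.6, 93.7 and 15.5 CPM in cluster 8 and to 24.8, 29.0 and 43.5 CPM in cluster 10, beside means of 11.1 to 34.1 CPM in the resting clusters. No marker of these 3 lists was at 0 in cluster 8. An alternative left out the barcodes flagged at a cut of 3 macrophage, NK or T cell UMIs, 9 of the 255 in cluster 8, while barcodes under the cut stayed in. It called 16 members in cluster 8, beside 4585 of all genes, and *Mvk* and *Mylip* were the members no longer called. The part of cycling was not tested. In cluster 10 the cDC2 list of 7 markers summed to 273, 818 and 201 CPM, led by *Cd209a*. In cluster 8 it summed to 314, 294 and 208 CPM, led by *Tmem176a*, and in cluster 4 to 617, 532 and 576 CPM, led by *Cd300a*, while its means in the resting clusters ran from 76.9 to 100.5 CPM. Of its 7 markers 3, 4 and 7 were at 10 CPM or more in clusters 10, 8 and 4, and none was at 0. The macrophage list was also higher in cluster 4, at 173, 105 and 206 CPM (5 of 10 markers at 10 CPM or more, led by *Apoe*), and in cluster 7, at 119, 82.9 and 136 CPM (2 of 10, led by *Fcgr1*), with none at 0. In cluster 10 it was at 92.1, 80.6 and 104 CPM (2 of 10, led by *Fcgr1*), beside means of 48.6 to 66.3 CPM in the resting clusters. The same cut flagged 20 of 512 barcodes in cluster 4 and 4 of 422 in cluster 7. With the flagged barcodes left out, 13 members were called in cluster 4 against cluster 1 and 13 in cluster 7, beside 1227 and 2353 of all genes. The part of the cDC2 markers in the members' levels was not tested.

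**Figure D1:**
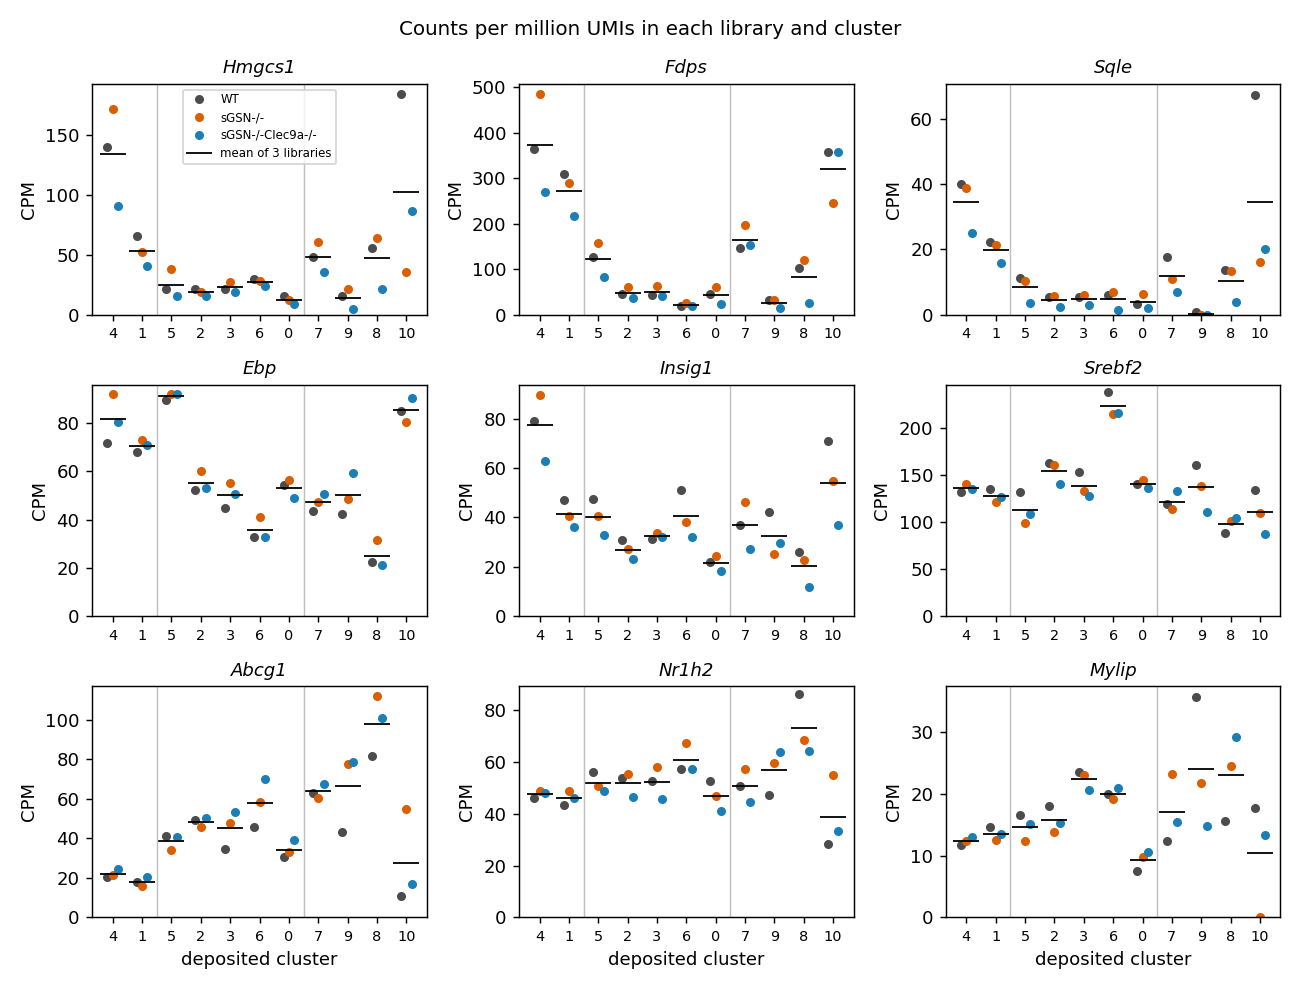
Levels of 9 members in CPM (y axis, linear from 0) by deposited cluster (x axis, early to activated), with 1 point for each of the 3 libraries and a dash at their mean. *Ebp* and *Insig1* lie lower in cluster 8 than in cluster 10 in every library, and *Abcg1* and *Nr1h2* higher.

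The 5 regulators differed among themselves. *Insig1*, a sterol-sensing anchor of SCAP and itself an SREBP target, was at 32.4, 30.6 and 25.7 CPM in resting, 59.2, 57.7 and 45.9 CPM in early, 26.2, 22.8 and 11.6 CPM in cluster 8 cells and 70.9, 54.8 and 36.8 CPM in cluster 10 cells. Its early and cluster 10 libraries lay above the pooled resting ones, and its cluster 8 libraries lay below the resting value of the same library. *Insig1* was called higher in early cells (log2 fold change 0.86, SE 0.0888, adjusted p 1.87e-10; 3 of 3 libraries), in cluster 4 against cluster 1 (0.82), in cluster 5 (0.46) and in cluster 10 (0.77). In cluster 7 it was called higher with the library as a block, with no filter and without the sGSN-/-Clec9a-/- library. In cluster 8 it was not called against resting cells, except as lower without TMM factors, and it was lower than in cluster 10 (log2 fold change −1.05, adjusted p 0.012, 3 of 3 libraries). The call in cluster 10 was lost under 5 of 10 alternatives: without TMM factors, with thinned cells, without doublets, and without the WT or the sGSN-/- library. That in cluster 5 was lost with thinned cells and without the WT library, and that between clusters 8 and 10 without the WT or the sGSN-/- library.

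*Insig2*, the other anchor, was at 16.2, 19.0 and 14.9 CPM in resting cells, 10.7, 5.51 and 3.88 CPM in cluster 8 cells and 14.2, 9.67 and 30.1 CPM in cluster 10. *Scap*, the escort, was at 15.6, 16.6 and 17.7 CPM in resting cells, 10.8, 9.16 and 9.13 CPM in early cells, 4.84, 6.30 and 7.76 CPM in cluster 8 cells and 3.54, 29.0 and 10.04 CPM in cluster 10. Both were lower in cluster 8 in 3 of 3 libraries, with no overlap with the pooled resting libraries, and both spread widely in cluster 10. The log2 fold change in cluster 8 was −0.95 for *Insig2* (adjusted p 0.0124), not called without the sGSN-/- library or with thinned cells, and −1.23 for *Scap* (adjusted p 0.00403). *Scap* was also lower in early cells (−0.86, adjusted p 1.78e-05, 3 of 3 libraries) and in cluster 5 (−0.52, 3 of 3 libraries), the last not without the WT or the sGSN-/- library or with thinned cells. Its mean was 30.5 CPM in resting cluster 6, beside 13.1 to 17.1 CPM in the other resting clusters. In early clusters 4 and 1 the mean was 7.74 and 10.8 CPM.

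*Srebf2*, which encodes the SREBP of the sterol pathway, was at 157, 144 and 141 CPM in resting, 134, 128 and 129.9 CPM in early, 88.2, 101 and 105 CPM in cluster 8 cells and 135, 109.6 and 87.0 CPM in cluster 10 cells. Early, cluster 8 and cluster 10 libraries all lay below the pooled resting ones. The resting clusters differed, with means of 223 CPM in cluster 6 and 113 CPM in cluster 5. Early clusters 4 and 1, at means of 136 and 128 CPM, lay between these and thus not below every resting cluster. It was called lower in early cells (−0.17), cluster 5 (−0.50), cluster 8 (−0.38) and cluster 10 (−0.44), in 3 of 3 libraries each. Leaving out the WT library removed the calls in early cells and cluster 8, leaving out the sGSN-/- library those in early cells and cluster 10, and leaving out the sGSN-/-Clec9a-/- library that in cluster 10. Thinning the cells removed the calls in early cells and cluster 10, and the fit with no filter that in early cells. *Srebf1*, which encodes the SREBP best known for fatty acid synthesis, was at 10.5, 8.55 and 8.44 CPM in resting, 9.02, 9.51 and 9.13 CPM in early, 3.88, 7.87 and 5.82 CPM in cluster 8 cells and 14.2, 19.3 and 6.69 CPM in cluster 10 cells, and it was called in none of the 8 comparisons.

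Of the transport genes, *Stard4*, which carries sterol between membranes, was at 9.52, 8.92 and 7.02 CPM in resting, 25.2, 32.3 and 23.0 CPM in early, 19.4, 7.08 and 1.94 CPM in cluster 8 cells and 35.4, 25.8 and 23.4 CPM in cluster 10 cells. Early and cluster 10 libraries lay above all resting ones, and cluster 8 was split, with the WT library above and the other 2 below. *Stard4* was called higher in early cells (1.65, adjusted p 1.67e-13) and in cluster 10 (1.65, adjusted p 0.00198), in 3 of 3 libraries each, and in cluster 4 against cluster 1 (0.60), the last not with any 1 library left out or with thinned cells. It was called lower in cluster 8 than in cluster 10 under 7 of 10 alternatives and higher in cluster 7 under 5, the library block and DESeq2 among both, though in neither with the settings used throughout. *Acat2*, the cytosolic acetyl-CoA acetyltransferase ahead of *Hmgcs1*, was at 1.75, 2.53 and 1.42 CPM in resting and 8.44, 7.95 and 6.02 CPM in early cells, and it was called there at 2.08 (adjusted p 4.49e-08, 3 of 3 libraries). *Npc1*, which exports cholesterol from lysosomes, was at 12.4, 11.4 and 10.8 CPM in resting, 9.69, 7.87 and 3.88 CPM in cluster 8 cells and 24.8, 9.67 and 13.4 CPM in cluster 10 cells and was called in no comparison.

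In the efflux arm, *Abcg1*, a cholesterol exporter, was at 39.0, 40.8 and 48.2 CPM in resting, 18.9, 17.6 and 22.0 CPM in early, 81.4, 112 and 101 CPM in cluster 8 cells and 10.6, 54.8 and 16.7 CPM in cluster 10 cells. Early libraries lay below and cluster 8 libraries above every resting library, and cluster 10 was split, its sGSN-/- library above the resting value and the other 2 below. It was lower in early cells (log2 fold change −1.12, SE 0.130, adjusted p 2.79e-09) and higher in cluster 8 (log2 fold change 1.42, SE 0.163, adjusted p 1.09e-09), in 3 of 3 libraries each. In cluster 7 it was higher by 0.66 (adjusted p 4.26e-04, 3 of 3 libraries), with 63.1, 60.6 and 67.3 CPM there, and not with thinned cells. Cluster 8 exceeded cluster 10 by 2.05 (SE 0.356, adjusted p 1.67e-05) in 3 of 3 libraries. Against resting cells cluster 10 was not called, except without the sGSN-/- library, when *Abcg1* was called lower there.

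*Nr1h2*, which encodes LXR beta, was at 53.8, 53.1 and 46.3 CPM in resting, 86.2, 68.5 and 64.0 CPM in cluster 8 cells and 28.3, 54.8 and 33.5 CPM in cluster 10 cells. Every cluster 8 library lay above every pooled resting library. In resting cluster 6 alone the sGSN-/- library was at 67.3 CPM. It was higher in cluster 8 (log2 fold change 0.75, SE 0.114, adjusted p 5.94e-07) and higher in cluster 8 than in cluster 10 (log2 fold change 1.16, SE 0.227, adjusted p 1.08e-04), in 3 of 3 libraries each, under all 10 alternatives, and cluster 10 was not called against resting cells. *Mylip*, an LXR target, was at 15.95, 14.4 and 15.4 CPM in resting, 15.5, 24.4 and 29.1 CPM in cluster 8 cells and 17.7, 0 and 13.4 CPM in cluster 10 cells, where 0 UMIs in the sGSN-/- library allow up to 9.67 CPM. Its WT library was not above resting in cluster 8, whereas the other 2 were. It was called at 0.75 in cluster 8 and at 1.37 against cluster 10, in 2 of 3 libraries, and both calls were lost under 5 of 10 alternatives: without the sGSN-/- or the sGSN-/-Clec9a-/- library, without TMM factors, with thinned cells and without barcodes carrying other markers.

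The 3 members under the filter were near the limit of detection in cDC1s. *Abca1*, the other exporter, had 17, 16 and 13 UMIs over all cDC1s of clusters 0 to 10, or 0.521, 0.681 and 0.606 CPM. *Nr1h3*, which encodes LXR alpha, had 8, 4 and 4 UMIs, or 0.245, 0.170 and 0.187 CPM. *Ch25h* had 7, 14 and 8 UMIs, or 0.215, 0.596 and 0.373 CPM. In cluster 8 *Abca1* had 1, 0 and 1 UMIs, *Ch25h* 1, 6 and 0, and *Nr1h3* none, where a count of 0 over the 3 libraries allows up to 1.06 CPM. In cluster 10 *Abca1* and *Nr1h3* had 0 UMIs in each library, which allows up to 3.37 CPM over the 3 libraries, and *Ch25h* had 0, 0 and 2. With no filter on low counts *Ch25h* was called higher in cluster 8 (log2 fold change 3.35, adjusted p 0.00123), a call that rests on the 1, 6 and 0 UMIs above. In that fit *Abca1* and *Nr1h3* were called in none of the 8 comparisons, and *Ch25h* in no other.

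Genotypes were compared as ratios of CPM over all cDC1s of clusters 0 to 10. With 1 library for each genotype there is no test, genotype cannot be told apart from the mix of sexes in each pool, intervals cover counting error only, and the comparisons share the sGSN-/- library. A member counted as past the fold when its log2 ratio was past 0.32 in either direction and its level was at least 10 CPM in either library. Between sGSN-/- and WT, 24 members reached that level, of which 2 were higher and 0 lower, beside 2.01% and 2.38% of all genes at that level. The log2 ratio was 0.33 (95% interval 0.10 to 0.55) for *Mvd* and 0.39 (95% interval 0.33 to 0.46) for *Fdps*, and the median was 0.13 over the members and −0.00 over all genes. With each cluster weighted equally the members' median was −0.11, and *Abcg1* was the member past the fold upwards and *Sqle* downwards, beside 106 and 221 of all genes. The sign of the members' median thus turned with this weighting, which also gives small clusters such as cluster 10 the same weight, and the cause was not tested. With thinned cells *Mvk*, *Mvd*, *Fdps*, *Msmo1* and *Stard4* were past the fold upwards and *Mylip* downwards, and without doublets or at a minimum of 20 CPM only *Fdps* was. Over all genes 133 were past the fold upwards and 158 downwards with the settings used throughout, and 311 and 311 with thinned cells. Without doublets they numbered 146 and 148, and at 20 CPM 75 and 65.

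Between sGSN-/-Clec9a-/- and sGSN-/-, 23 members reached 10 CPM, of which 0 were higher and 12 lower, beside 1.14% and 5.74% of all genes. The median log2 ratio was −0.34 over the members and −0.07 over all genes. Over all cDC1s *Idi1* was at 47.4, 52.6 and 26.2 CPM, *Fdps* at 122, 160.1 and 95.2 CPM and *Hmgcs1* at 40.3, 45.9 and 27.7 CPM. For each of them the sGSN-/-Clec9a-/- library was the lowest. The log2 ratio was −1.0 (95% interval −1.15 to −0.86) for *Idi1*, −0.75 (95% interval −0.83 to −0.67) for *Fdps* and −0.73 (95% interval −0.88 to −0.59) for *Hmgcs1*. The other members past the fold were *Sqle* at −0.90, *Hsd17b7* at −0.73, *Cyp51* at −0.70, *Sc5d* at −0.66, *Msmo1* at −0.64, *Fdft1* at −0.57, *Mvd* at −0.48, *Stard4* at −0.46 and *Insig1* at −0.34.

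The same 12 members were past the fold with each cluster weighted equally and with likely doublets left out, and 10 members were with cells thinned to 4600 UMIs. Over all genes 510 of 6673, 401 of 6569 and 701 of 6671 were past the fold downwards in these settings, beside 378 of 6586 above. Cluster by cluster, the sGSN-/-Clec9a-/- library was the lowest of the 3 in 10 of 11 clusters for *Hmgcs1* and *Idi1*, in 9 for *Fdps*, *Sqle*, *Cyp51*, *Msmo1* and *Insig1*, in 7 for *Sc5d* and in 6 for *Mvd*, *Fdft1*, *Hsd17b7* and *Stard4*. Of the 23 members at 10 CPM, 7 (30.4%) had it lowest in at least 9 clusters, beside 6.62% of the 6586 genes at that level. Between sGSN-/-Clec9a-/- and sGSN-/- the log2 ratio for *Srebf2* was 0.01 (95% interval −0.06 to 0.08) and for *Abcg1* it was 0.13 (95% interval −0.00 to 0.26). Against WT, which shares the sGSN-/-Clec9a-/- library with the comparison above, 21 members reached 10 CPM, of which 0 were past the fold upwards and 8 downwards, beside 0.715% and 5.96% of all genes. The median log2 ratio was −0.25 over these members and −0.08 over all genes, and 18 of the 21 members and 71.5% of the genes were lower. The sGSN-/-Clec9a-/- library also had the lowest median depth and the highest mitochondrial share of the 3, given above. Thinning evened out the depth, but it also left out the 280 cells under 4600 UMIs. Random loss of UMIs leaves a ratio of summed CPM unchanged on average, so thinning cannot show the part of depth. The parts of depth and of the mitochondrial share were not tested.

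The ratios of sGSN-/-Clec9a-/- to sGSN-/- were also read by state and in barcodes outside the deposited cDC1 table, over all members at 10 CPM or more in the cells read. The median log2 ratio was −0.49 over 23 members in early cDC1s beside −0.07 over all genes at that level, −0.20 over 15 in resting ones beside −0.07, and −0.36 over 21 in activated ones beside −0.04. Activated cells included 134 of cluster 7 in both libraries, but 114 of cluster 8 in sGSN-/- and 57 in sGSN-/-Clec9a-/-. The mix of clusters thus differs within that state. The median log2 ratio was −0.10 over 22 members in 3939 barcodes rich in C1q UMIs beside −0.04 over all genes, −0.12 over 24 in 5574 with cDC2 markers beside −0.05, and −0.01 over 19 in 3610 with NK cell markers beside −0.08. The members at 10 CPM differ between these cells, and the difference between cDC1s and the other barcodes was not tested.

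**Figure D2:**
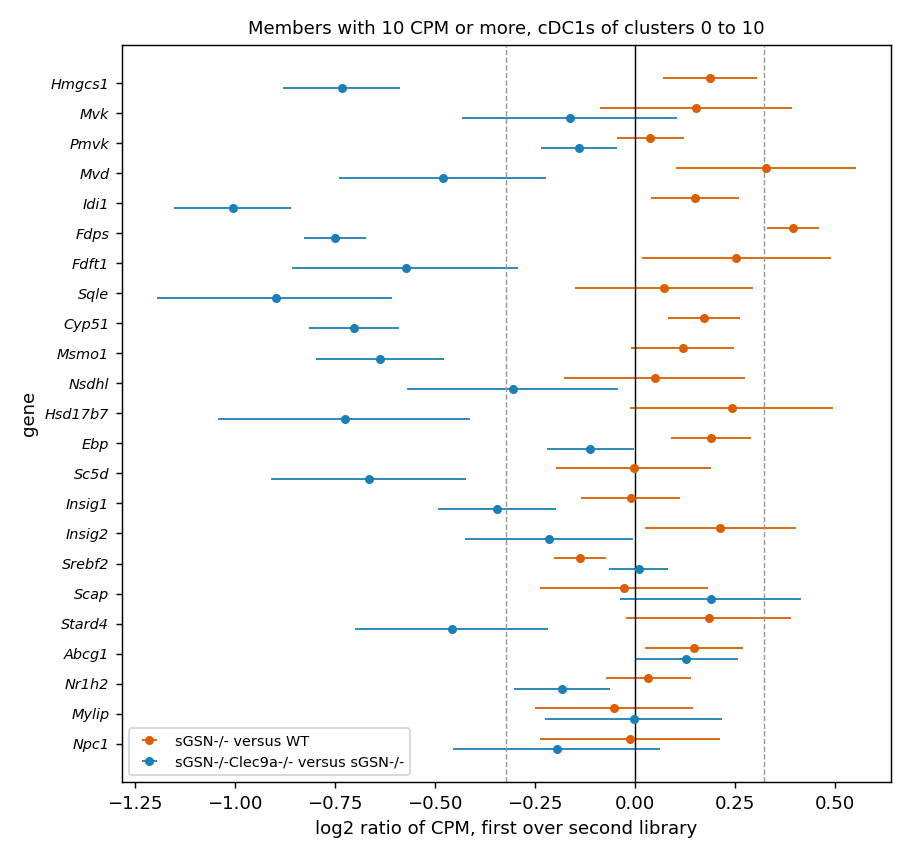
Log2 CPM ratios of sGSN-/- over WT and of sGSN-/-Clec9a-/- over sGSN-/- (x axis) for the 23 members at 10 CPM or more in the sGSN-/-Clec9a-/- or sGSN-/- library (y axis), with 95% counting intervals as bars and dashed lines at log2 ratios of 0.32 either way. For sGSN-/-Clec9a-/- over sGSN-/-, 12 members lie past the lower line.

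Since 16 enzymes were called together in early cells, the members' promoters were searched for 3 motifs. RefSeq promoters of GRCm38.p6, from 250 bases before to 50 after a start, were at hand for 25 of the 31 members, not for *Fdps*, *Fdft1*, *Sqle*, *Stard4*, *Abcg1* and *Npc1*, and for 27025 genes in all. On either strand the SREBP element TCACNCCAC occurred in 1 of 25 members (4%) beside 1.44% of all genes, and the NF-Y box CCAAT, the site of a factor that acts beside SREBP, in 19 of 25 (76%) beside 41.1%. The LXR direct repeat, a pair of AGGTCA sites 4 bases apart, occurred in 0 of 25 members and in 4 genes in all. A match is a description of letters in a window and not a measured binding site.

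The stretches below, of the RefSeq promoters of GRCm38.p6 and free of annotated exons, show where these letters fall in the member with the SREBP element and in 4 members named above whose levels were called. They run 5′ to 3′ on the gene's strand, with each SREBP element or NF-Y box (CCAAT, or ATTGG where it lies on the other strand) in capitals. *Hmgcs1* is at chr13:119690101-119690350 on the plus strand, with TCACCCCAC starting at −137 from the start site. *Mvd* is at chr8:122443423-122443672 on the minus strand, *Hsd17b7* at chr1:169969242-169969408 on the minus strand, *Insig1* at chr5:28071162-28071362 on the plus strand and *Ebp* at chrX:8193513-8193762 on the minus strand.
Hmgcs1: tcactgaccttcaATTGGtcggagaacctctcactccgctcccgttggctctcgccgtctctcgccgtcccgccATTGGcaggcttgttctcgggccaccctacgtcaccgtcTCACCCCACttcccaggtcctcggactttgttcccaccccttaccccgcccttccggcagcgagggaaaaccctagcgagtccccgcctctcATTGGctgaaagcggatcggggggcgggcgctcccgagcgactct
Mvd: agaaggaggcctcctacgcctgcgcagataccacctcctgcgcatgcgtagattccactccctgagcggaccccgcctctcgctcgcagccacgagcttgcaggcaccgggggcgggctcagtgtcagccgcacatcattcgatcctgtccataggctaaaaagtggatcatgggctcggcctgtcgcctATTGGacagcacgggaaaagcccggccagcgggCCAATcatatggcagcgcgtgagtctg
Hsd17b7: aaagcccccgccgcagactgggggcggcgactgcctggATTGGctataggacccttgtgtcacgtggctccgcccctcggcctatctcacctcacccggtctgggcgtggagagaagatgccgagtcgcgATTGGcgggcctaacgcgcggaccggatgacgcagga
Insig1: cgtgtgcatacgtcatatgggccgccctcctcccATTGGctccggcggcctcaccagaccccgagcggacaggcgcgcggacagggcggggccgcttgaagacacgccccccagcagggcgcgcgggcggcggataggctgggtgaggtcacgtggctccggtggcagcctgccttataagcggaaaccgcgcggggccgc
Ebp: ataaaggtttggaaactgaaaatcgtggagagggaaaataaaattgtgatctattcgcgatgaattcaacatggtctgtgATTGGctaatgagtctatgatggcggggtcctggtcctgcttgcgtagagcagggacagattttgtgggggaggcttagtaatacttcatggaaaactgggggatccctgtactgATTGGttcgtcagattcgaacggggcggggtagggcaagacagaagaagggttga

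Other genes around the pathway were taken from 6 fixed lists and are given as counts of genes called higher and lower of those tested, with *Scd2* counted in both the fatty acid and the LXR list. In early cells against resting ones, beside 24.1% and 22.8% of all genes, fatty acid synthesis had 8 and 2 of 11, led by *Fads2* (2.99) and *Scd1* (−1.75), and SREBP processing and degradation 0 and 4 of 9, led by *Rnf145* (−0.86). LXR partners and targets had 5 and 2 of 11, led by *Scd2* (0.63) and *Rxra* (−1.21), and sterol uptake and storage 6 and 4 of 18, led by *Lrp1* (1.26) and *Cd36* (−1.32). Oxysterol enzymes and their receptor had 1 and 2 of 3, led by *Gpr183* (0.24), the receptor, and *Hsd3b7* (−0.61), and the prenyl branch 2 and 0 of 13, led by *Rce1* (0.40). Values in brackets are log2 fold changes.

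In cluster 8, beside 27.0% and 21.2% of all genes, fatty acid synthesis had 2 and 3 of 11 (*Scd1* 1.3, *Fasn* −1.56), SREBP processing 2 and 1 of 9 (*Ubxn8* 1.28, *Rnf145* −0.66) and LXR partners and targets 4 and 2 of 11. The last were led by *Pltp* (2.15), *Arl4c* (1.64) and *Abca7* (1.24), and *Rxra*, the partner of both LXRs, had 0, 1 and 0 UMIs there beside 10.8, 8.70 and 10.6 CPM in resting cells. Sterol uptake and storage had 8 and 5 of 18 (*Gramd1b* 2.59, *Lamp1* 2.44, *Scarb1* −1.55), oxysterol enzymes and receptor 0 and 2 of 3 (*Cyp27a1* −1.21) and the prenyl branch 0 and 2 of 13 (*Coq2* −1.23). The macrophage markers of cluster 8 were uneven between libraries, as given above, and their part in these lists was not tested. In cluster 10, beside 10.6% and 7.08% of all genes, 4 lists had 0 calls in either direction by edgeR, sterol uptake and storage had 0 and 1 (*Lipa* −1.16) and oxysterol enzymes and receptor 0 and 2 (*Hsd3b7* −1.40). Between clusters 8 and 10, beside 16% and 11.2% of all genes, the lists, in the order just given, had 1 and 2 (*Scd1* 2.61, *Fasn* −1.71), 2 and 1 (*Ubxn8* 2.05), 2 and 0 (*Arl4c* 1.86), 6 and 2 (*Lrp1* 3.25, *Nceh1* −1.75), 1 and 0 (*Hsd3b7* 1.2) and 0 and 1 (*Coq2* −1.61).

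In the other comparisons the same 6 lists, in the same order, gave these counts. In cluster 4 against cluster 1, beside 7.67% and 5.30% of all genes, they had 0 and 1, 0 and 1, 0 and 0, 3 and 0, 0 and 1, and 0 and 1, led by *Lrp1* (1.86). In cluster 5, beside 19.6% and 18.1%, they had 3 and 1, 1 and 2, 1 and 2, 1 and 3, 0 and 2, and 5 and 0, led by *Fads2* (1.93). In cluster 7, beside 16% and 8.47%, they had 1 and 4, 1 and 2, 0 and 2, 4 and 1, 1 and 0, and 1 and 0, led by *Fads2* (1.85). In cluster 9, beside 4.83% and 1.17%, they had 1 and 0, 0 and 0, 0 and 0, 2 and 0, 0 and 1, and 0 and 0, led by *Cd36* (0.84).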

How the data were processed

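UMI counts of 3 droplet libraries, as the authors deposited them from Cell Ranger 6.0.1 on mm10 (GRCm38), were used with the deposited table of cDC1 barcodes and clusters, made by the authors with Seurat 4.0.0 per the labels. Counts were summed for each library and cluster from 0 to 10, which gave 33 sums. Cluster 11, with 60 cells of high mitochondrial share, was left out, since the study describes these as likely dying cells. CPM are a gene's summed UMIs over all UMIs of the same cells, times 1e6. Genes were tested on these sums with edgeR 4.0.16 in R 4.3.3 (filterByExpr, TMM factors, quasi-likelihood F-test, Benjamini-Hochberg adjustment over all genes tested, called under 0.05), with cluster as the only factor and the 3 libraries as replicates. "Resting" in a test is the mean of the 5 resting clusters, and a count of libraries compares log2 of CPM plus 1 with that mean in the same library. A resting level in CPM pools the cells of the 5 resting clusters, so libraries above or below it can still overlap with a single resting cluster. The test was tested on simulated data. Genotype ratios carry exact conditional 95% intervals from scipy 1.17.1. Likely doublets are the 6% of barcodes with the highest Scrublet scores in each library, run through scanpy 1.11.5.

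Within a library the sums of different clusters come from the same pool of mice. Over all genes tested, the residuals of such pairs of sums correlated at −0.015 to 0.18 across 7 pairs in each library, and the library was also fitted as a block. The alternatives were no TMM factors, DESeq2 1.42.0, no filter on low counts, the block, cells thinned to 4600 UMIs (with the 280 cells under that depth left out), doublets left out, barcodes with markers of other cell types left out, and each library left out in turn. Barcodes with or carrying other markers are the 60 flagged at a cut of 3 macrophage, NK or T cell UMIs, and barcodes under the cut stayed in. For genotype ratios they were equal weights for clusters, thinning, doublets left out and a minimum of 20 CPM. Members and lists were chosen with earlier results of these data known. Values in every library are given for members called with at least a 1.5-fold change in cluster 8 or 10 or between them, and for *Srebf1*, *Srebf2*, *Insig1*, *Abca1*, *Abcg1*, *Nr1h3* and *Ch25h*. Values of other members were chosen after they were seen. From each other list the called genes with the largest change in a direction are named, at most 3. Motifs were searched on both strands of RefSeq promoters, and gene positions are from GENCODE M21.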

Additional observations from a re-analysis of the deposited data

Results flagged for a closer look

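For 3 members the effects in clusters 8 and 10 had opposite signs in every library against the mean of the 5 resting clusters. For *Nr1h2* this does not hold against the pooled resting cells, since its sGSN-/- library was at 53.1 CPM there and at 54.8 CPM in cluster 10. The edgeR log2 fold changes of cluster 8 over cluster 10 were −1.46 for *Ebp*, −1.05 for *Insig1* and 1.16 for *Nr1h2*. Each was called, but the 3 were picked for their opposite signs, which fix the direction of that difference in every library, so the calls are a description and no further support. The call of *Insig1* was not made without the WT library or without the sGSN-/- library.

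The 3 members under the filter in cDC1s gave a signal in barcodes that the comparisons between clusters do not use. In the 3939 C1q-rich barcodes outside the deposited table, *Abca1* had a mean of 40.2 CPM, *Nr1h3* of 3.35 CPM and *Ch25h* of 8.05 CPM over the 3 libraries. In cDC1s of clusters 0 to 10 the means were 0.603, 0.201 and 0.395 CPM. Whether the C1q-rich barcodes and the cDC1s differ was not tested.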

How the results depend on the processing

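Of 99 calls of members over the 8 tested comparisons, 54 were made under every alternative that could test them and none reversed its direction under any of the 10. The counts in this paragraph have no share of calls kept over all genes beside them. They thus do not show whether the members' calls are more or less stable than those of other genes. By setting, 8 calls were lost without TMM factors, 6 with DESeq2, 2 with no filter, 27 of 96 with thinned cells, 5 without doublets, 3 without barcodes carrying other markers, 31 without the WT library, 30 without the sGSN-/- library and 8 without the sGSN-/-Clec9a-/- library. The replicate block (library) kept all 99 calls and added 8: *Acat2* in cluster 4 against cluster 1, *Insig1* and *Stard4* in cluster 7, *Sqle* and *Stard4* as lower in cluster 8 than in cluster 10, and 3 in cluster 9. Calls were also added without TMM factors (5), with DESeq2 (9), with no filter (15), with thinned cells (2), without doublets (3), without barcodes carrying other markers (2), and without the WT (4), sGSN-/- (2) and sGSN-/-Clec9a-/- (7) libraries.

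Counts of called members moved by more than 1.5 times in these cases. In cluster 9 the count of 0 became 3 with DESeq2, 6 with no filter and 3 with the block. With thinned cells the count went from 10 to 5 in cluster 5 and from 18 to 10 in cluster 8, with fewer genes tested (7444) and 280 cells left out, 62 of the 255 of cluster 8 among them. Members past the fold between sGSN-/- and WT went from 2 to 6 with thinned cells (5 higher, 1 lower), and to 1, *Fdps*, without doublets and at a minimum of 20 CPM, where *Mvd* is not past the fold or not counted. Between sGSN-/-Clec9a-/- and sGSN-/- they went from 12 to 6 at 20 CPM, where 11 members are counted. The cause was not tested, and depth and the cells left out by thinning cannot be told apart.

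With 1 library left out, the counts ranged from 21 to 22 in early cells, 4 to 10 in cluster 4 against cluster 1, 5 to 11 in cluster 5, 9 to 14 in cluster 7, 0 to 2 in cluster 9, 10 to 18 in cluster 8, 10 to 13 in cluster 10 and 6 to 8 between clusters 8 and 10. Counts over all genes also moved with thinned cells, to 589, 2135, 1202, 275, 2962, 780 and 1479 in the same order from cluster 4 against cluster 1 onwards. Genes past the fold between genotypes came to 622 and 854 with thinned cells and to 140 and 244 at 20 CPM.

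Depth in the small sums is a limit: cluster 10 holds 76 cells and 891318 UMIs, so a member at a few CPM there rests on a few molecules. Each genotype is 1 pooled library, so genotype and library cannot be told apart. Transcript counts do not measure sterol, protein or SREBP cleavage. Exons of 4 members (*Fdps*, *Tm7sf2*, *Srebf1* and *Nr1h3*) overlap another gene on the same strand, where reads cannot be assigned to 1 gene.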

Other observations

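Levels of the efflux arm in barcodes outside the deposited cDC1 table were as follows. In the C1q-rich barcodes *Abca1* was at 43.7, 36.5 and 40.5 CPM in the WT, sGSN-/- and sGSN-/-Clec9a-/- libraries and *Abcg1* at 49.5, 48.2 and 53.3 CPM. In the cDC2-marker barcodes *Abca1* was at 8.19, 7.30 and 12.8 CPM and *Abcg1* at 42.9, 41.6 and 53.1 CPM. In the NK-marker barcodes *Abca1* was at 6.84, 4.84 and 7.74 CPM and *Abcg1* at 22.2, 29.8 and 33.8 CPM. *Srebf2* was at 57.6, 58.8 and 57.2 CPM in C1q-rich, 86.5, 88.4 and 80.7 CPM in cDC2-marker and 39.7, 38.5 and 38.7 CPM in NK-marker barcodes.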
